A study of Mus musculus with 2 samples.

Results

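The mitochondrial carrier genes, which are the Slc25a genes together with Ucp1, Ucp2 and Ucp3, were taken from the table of gene activity by their symbols alone. They make up 56 of the 24165 RefSeq entries in the table and 49 of its 20128 gene symbols. Of these genes, 43 have 1 entry and 6 have several, and entries of 1 gene can overlap and count the same reads. Gene activity was measured by global run-on sequencing (GRO-seq), in which nuclei are isolated, engaged RNA polymerases extend their transcripts with a bromouridine label, and the RNA so marked is pulled down for sequencing. A value therefore reflects polymerase on the gene and not the amount of mature mRNA. The only group is untreated C2C12 myoblasts, an established mouse line of muscle precursor cells, grown on 10 cm plates to 80% confluency, with 2 libraries labelled as replicates. The authors pooled the 2 libraries and gave each entry a single activity in RPKmM, which is RPKM taken over mappable sequence on the sense strand of the gene body, which starts 1000 bp after the transcription start. An entry is marked inactive, with no value, where its read density did not pass the authors' comparison with gene deserts. The table thus holds no replicate value, no second condition and no depth per library, so no test could be made. The error given beside ratios is that of the rounding in the table, 0.005 RPKmM on either side of a value. All values are levels per length of gene, so genes can be set beside each other.

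Carriers of this family sit mostly in the inner mitochondrial membrane, where they move nucleotides, phosphate, metabolites, amino acids, cofactors and metal ions between cytosol and matrix. They share a fold of membrane helices built from repeats of a common unit, and most repeats carry a signature motif of a proline, an acidic residue and a basic residue. In muscle they pass ADP in and ATP out of mitochondria, bring in the phosphate for ATP synthesis, and carry reducing equivalents by the malate-aspartate shuttle. Related members let protons back across the membrane, as Ucp1 does in brown fat.

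Promoter sequences are shown first for the 2 most active carriers, for members of the closely related pairs described below, and for 2 inactive carriers, to show how CG dinucleotides vary among them. Each line is the 150 bases just before the annotated start on the strand of the gene, 5′ to 3′, from RefSeq on GRCm38.p6, with every CG dinucleotide in capitals. The windows are chr8:46211063-46211212 (minus strand) for Slc25a4, chr10:91123968-91124117 (minus) for Slc25a3, chr19:43674882-43675031 (minus) for Slc25a28, chrX:36795447-36795596 (plus) for Slc25a5, chr3:40708721-40708870 (plus) for Slc25a31, chr8:83290198-83290347 (plus) for Ucp1 and chr6:120773618-120773767 (plus) for Slc25a18.
Slc25a4: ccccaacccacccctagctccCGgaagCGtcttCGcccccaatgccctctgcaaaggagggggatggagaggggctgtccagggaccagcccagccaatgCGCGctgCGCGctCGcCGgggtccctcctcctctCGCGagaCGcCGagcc
Slc25a3: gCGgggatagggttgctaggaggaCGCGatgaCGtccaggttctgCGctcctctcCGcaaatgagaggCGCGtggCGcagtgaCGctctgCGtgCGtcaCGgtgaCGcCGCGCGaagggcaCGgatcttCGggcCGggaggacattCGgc
Slc25a28: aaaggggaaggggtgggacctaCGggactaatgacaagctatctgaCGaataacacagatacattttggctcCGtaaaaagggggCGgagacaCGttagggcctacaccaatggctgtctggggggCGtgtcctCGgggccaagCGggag
Slc25a5: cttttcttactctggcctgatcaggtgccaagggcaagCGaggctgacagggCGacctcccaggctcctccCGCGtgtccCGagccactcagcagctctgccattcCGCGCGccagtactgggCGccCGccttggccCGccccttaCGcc
Slc25a31: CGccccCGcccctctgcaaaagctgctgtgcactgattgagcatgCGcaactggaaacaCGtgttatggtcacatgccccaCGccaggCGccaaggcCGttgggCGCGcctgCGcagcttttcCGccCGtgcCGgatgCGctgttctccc
Ucp1: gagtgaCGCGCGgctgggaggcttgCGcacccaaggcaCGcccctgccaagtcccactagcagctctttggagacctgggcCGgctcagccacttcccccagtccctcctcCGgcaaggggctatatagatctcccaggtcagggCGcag
Slc25a18: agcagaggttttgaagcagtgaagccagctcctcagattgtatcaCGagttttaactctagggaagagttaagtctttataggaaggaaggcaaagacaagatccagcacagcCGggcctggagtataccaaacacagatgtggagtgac
Slc25a3, with 21 CG dinucleotides in 150 bases, and Slc25a4, with 13, are the most active carriers, and Slc25a18, with 2, is inactive. The order does not follow activity throughout, since Slc25a31 has 14 and lies at the bottom of the active range, while Slc25a28 has 8, as many as the inactive Ucp1.

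Of the 56 carrier entries, 49 (87.5%) were active, where 70.2% of all entries in the table were. By gene, 43 of 49 (87.8%) had an active entry, beside 68.7% of all symbols. Most carriers were thus transcribed, but at moderate levels. The active carrier entries ranged from 0.01 to 13.0 RPKmM around a median of 0.59 (quartiles 0.23 and 1.36), whereas the median of the other active entries was 0.87 (quartiles 0.22 and 2.0). The ratio of these medians was 0.678. It is a ratio among active entries only: with inactive entries counted as 0 the carriers stood higher, at 1.26 times the median of the others. Activities from 0.1 to below 1 were listed for 27 entries (48.2%), compared with 24.8% of the other entries. At least 1 RPKmM was reached by 16 entries (28.6%, with 32.3% of all entries), and at least 5 by 4 entries (7.14%, with 5.41% of all entries). Below 0.1 lay 6 active carrier entries (10.7%), against 13.0% of the others.

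**Figure D1:**
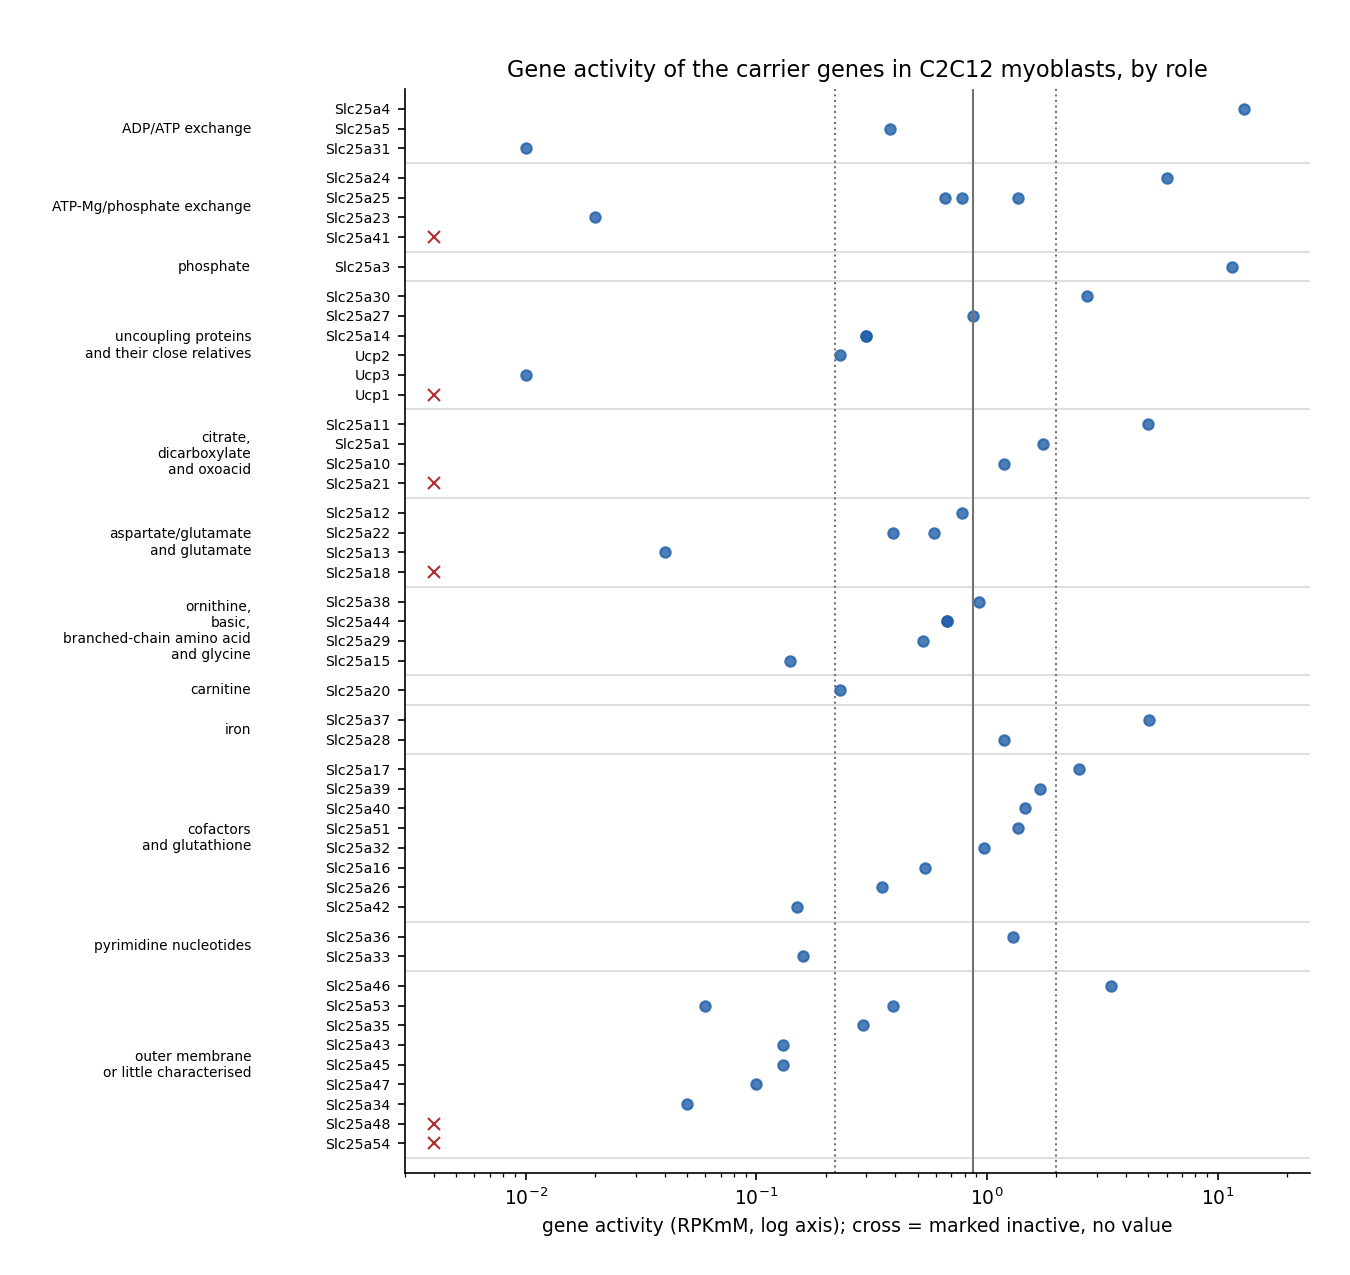
Gene activity of 55 of the 56 carrier entries in C2C12 myoblasts (x axis, RPKmM, log scale) by gene and role (y axis), from both libraries pooled. Points are active entries, crosses on the left are genes whose entries are marked inactive, and the vertical lines are the quartiles (dotted, 0.22 and 2.0) and the median (solid, 0.87) of all other active entries. Slc25a4 and Slc25a3 lie furthest to the right, above 10, and the ADP/ATP carriers span from 13.0 to 0.01.

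The family was uneven. With the most active entry of each gene summed, the 43 active genes reached 69.8 RPKmM, of which Slc25a4, Slc25a3, Slc25a24 and Slc25a37 held 51.0% and the 10 most active genes 75.5%. Slc25a4 alone held 18.6%. Among the 49 active entries, 18 lay above the median of the other active entries and 8 above their upper quartile.

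The ADP/ATP carriers covered the whole range of the family. Slc25a4, the ADP/ATP carrier typical of heart and skeletal muscle, had the highest activity of all carriers, 13.0 RPKmM, above 97.9% of the other active entries. Slc25a5, the isoform known from proliferating cells, had 0.38, and Slc25a31, known from the male germ line, had 0.01, the lowest value of an active carrier, which Ucp3 shares. Slc25a4 was thus 34.2 times as active as Slc25a5 (33.8 to 34.7 from rounding), although their proteins are 89.6% identical. The phosphate carrier Slc25a3, which supplies phosphate for the same ATP synthesis, came next to Slc25a4 with 11.56. On mm9, Slc25a4 lies at chr8:47292151-47296638 on the minus strand, with 4 exons, and Slc25a3 at chr10:90579319-90586804 on the minus strand, with 8 exons.

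Slc25a5 is uncertain, because only uniquely mapped reads were counted and the gene has many near-identical copies. In the mm9 genome, 7 further loci match at least 50% of its spliced sequence at 90% identity or more, the best at 97.8%, and no such copy was found for Slc25a4. Within the measured gene body of 2157 bp of Slc25a5, at chrX:34335646-34338802 on the plus strand, 87.6% of 75-base windows occur once in the genome. This share was 78.4% of the 1197 windows that touch an exon and 100% of the 886 windows within introns, while in Slc25a4 all windows were unique. The activity is scaled to mappable bases, and reads that the authors shortened before mapping are not covered by the share of 75-base windows. How much the copies contribute to the value of Slc25a5 was not tested. Of the other carriers, Slc25a40 and Slc25a51 have 1 such copy each, at 96.0% and 94.4% identity, and Slc25a24 has no copy but 37597 unique windows of 44235.

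**Figure D2:**
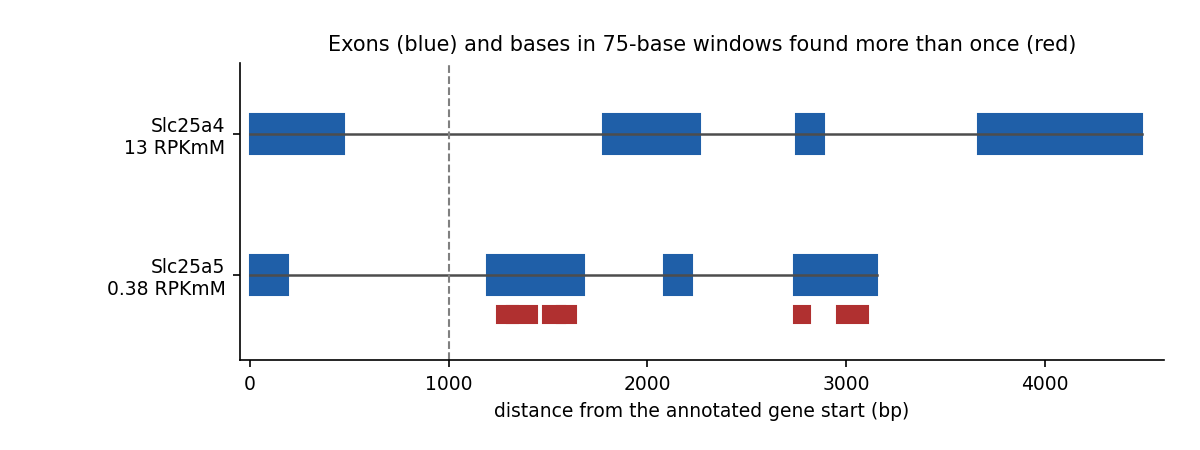
Gene models of Slc25a4 and Slc25a5 on mm9, by distance from the annotated start (x axis, bp), with exons in blue, introns as a line, and in red the bases covered by 75-base windows that occur more than once in the genome. The dashed line at 1000 bp marks where the measured gene body begins, and the red stretches lie over exons of Slc25a5 only.

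The ATP-Mg/phosphate carriers, which exchange adenine nucleotides for phosphate and are mostly regulated by calcium, were graded as well. Slc25a24 had 6.03 RPKmM, the third highest value of the family. Slc25a25 has 3 entries, with 1.36, 0.78 and 0.66. Slc25a23 had 0.02 and Slc25a41, which lacks the calcium-binding part, was inactive. The inactive Slc25a41 lies 2056 bp from Slc25a23 on chromosome 17, and Slc25a24 lies 6461 bp from Slc25a54 on chromosome 3, on the same strand. Slc25a54 was inactive although its neighbour was among the most active carriers, and their proteins are 58.6% identical.

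Uncoupling proteins were at low levels. Ucp1, which makes heat in brown fat, was inactive, Ucp2, the widely expressed relative, had 0.23 and Ucp3, the form of skeletal muscle, had 0.01. Ucp2 and Ucp3 lie 6904 bp apart on chromosome 7 and differed 23.0-fold (15 to 47 from rounding). Of their close relatives in the brain-type and kidney-type group, Slc25a30 had 2.71, Slc25a27 0.87, and both entries of Slc25a14 0.3. Only Slc25a30 of these 6 genes exceeded the median of the other active entries.

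Among carriers of citrate, dicarboxylates and oxoacids, 3 of 4 genes were active, where 87.8% of all carrier genes were. All 3 lay above the median of the other active entries. Slc25a11, the oxoglutarate/malate carrier of the malate-aspartate shuttle, had 4.99, Slc25a1, the citrate carrier, had 1.75 and Slc25a10, the dicarboxylate carrier, had 1.19. Both entries of Slc25a21, a carrier of oxodicarboxylates, were inactive. The aspartate/glutamate carriers, which complete the shuttle, were lower. Slc25a12, the form typical of muscle and brain, had 0.78, and Slc25a13, the liver form, had 0.04, a difference of 19.5-fold (17.2 to 22.4 from rounding). The glutamate carrier Slc25a22 had 0.59 and 0.39 in its 2 entries, and its paralog Slc25a18 was inactive. No gene of this amino acid group exceeded the median of the other active entries.

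Other amino acid carriers lay between 0.14 and 0.92. Slc25a38, the glycine carrier needed for haem synthesis, had 0.92, the branched-chain amino acid carrier Slc25a44 had 0.67 in both entries, Slc25a29, a carrier of basic amino acids, had 0.53, and the ornithine carrier Slc25a15 had 0.14. Slc25a20, the carnitine/acylcarnitine carrier through which fatty acids enter for oxidation, had 0.23. The iron carriers were both above the median of the other active entries. Slc25a37 (mitoferrin 1) had 5.02 and Slc25a28 (mitoferrin 2) 1.18.

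All 9 genes for cofactor and glutathione carriers were active, where 87.8% of all carrier genes were. They ranged from 0.15 to 2.51, with a median of 0.97. Slc25a17, the peroxisomal member of the family, had 2.51. The glutathione carriers Slc25a39 and Slc25a40 had 1.69 and 1.46, and the NAD carrier Slc25a51 had 1.36. Slc25a32, a folate and flavin carrier, had 0.97, followed by Slc25a16 with 0.54, the S-adenosylmethionine carrier Slc25a26 with 0.35 and the coenzyme A carrier Slc25a42 with 0.15. Of the pyrimidine nucleotide carriers, Slc25a36 had 1.3 and Slc25a33 had 0.16. In the group of outer membrane and little characterised members, Slc25a46, an outer membrane protein that acts in mitochondrial dynamics, stood apart with 3.44. The rest of this group lay at or below 0.39, with Slc25a53 at 0.39 and 0.06, Slc25a35 at 0.29, Slc25a43 and Slc25a45 at 0.13, Slc25a47 at 0.1 and Slc25a34 at 0.05. Slc25a48 and Slc25a54 were inactive.

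Entries of 1 gene could differ in activity. Of the 5 genes with several active entries, Slc25a14 and Slc25a44 had equal values, Slc25a22 differed 1.51-fold, Slc25a25 2.06-fold and Slc25a53 6.5-fold. A ratio over 1.5 was thus found in 3 of 5, compared with 20.8% of the 2274 symbols in the table with several active entries above 0, and a ratio over 3 in 1 of 5, compared with 3.87%. Rounding allows 1.48 to 1.55 for Slc25a22, so that 2 or 3 genes lie over 1.5. The ratio in Slc25a53 is of 0.39 to 0.06, and rounding alone allows 5.92 to 7.18.

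Closely related carriers were compared by the most active entry of each gene. Proteins translated from the annotation were aligned in all 1176 pairs of the 49 genes, and 13 pairs were at least 60% identical. In 11 of these both genes were active, the more active gene exceeded the other over 3-fold in all 11 and over 10-fold in 7, and the median ratio was 23.0. Of the 892 other pairs with both genes active, 64.2% differed over 3-fold and 32.7% over 10-fold, with a median ratio of 5.01. The difference between these sets of pairs was not tested. The largest ratio was Slc25a4 over Slc25a31, 1300 (866 to 2600 from rounding), and the smallest was Slc25a37 over Slc25a28, 4.25 (4.23 to 4.28). The ratio of Slc25a24 to Slc25a25 was 4.43 (4.41 to 4.45 from rounding) and that of Slc25a25 to Slc25a23 was 68.0 (54.2 to 91), but with the lowest entry of Slc25a25 they were 9.14 and 33.0. Slc25a24 exceeded Slc25a23 302-fold (241 to 402) and Slc25a5 exceeded Slc25a31 38.0-fold (25 to 77). Slc25a30 exceeded Slc25a14 9.03-fold (8.87 to 9.2) and Slc25a36 exceeded Slc25a33 8.12-fold (7.85 to 8.42). In the remaining pairs, Slc25a22 with Slc25a18 and Slc25a23 with Slc25a41, the lower gene was inactive. Pairs that share a gene are not independent, and a ratio to a value of 0.01 or 0.02 rests on few distinct steps of the table.

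**Figure D3:**
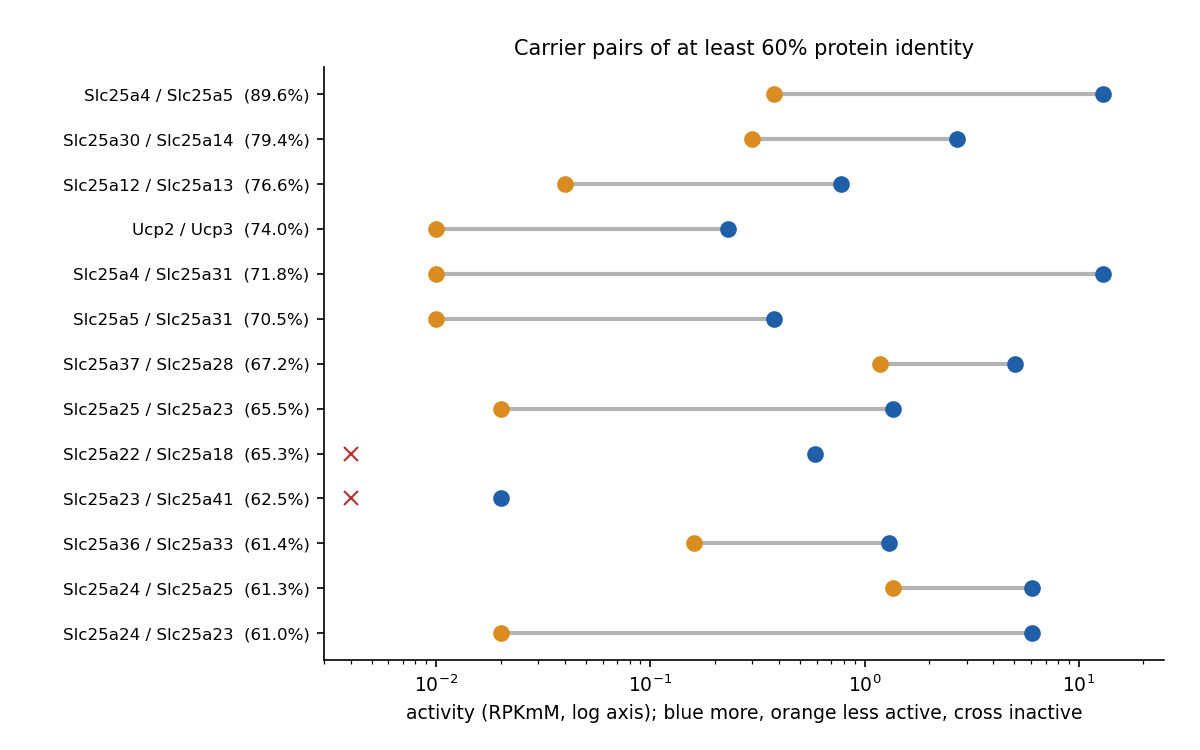
Activity of the 13 pairs of carriers with at least 60% identical proteins (x axis, RPKmM, log scale), ordered by identity, which is given in brackets on the y axis. Blue points are the more active gene, orange points the less active gene, and crosses an inactive gene. Slc25a4 with Slc25a31 spans the widest range, from 13.0 to 0.01.

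In the share of active entries and their median, the carriers lay between the other Slc transporters and the energy-producing machinery. This order did not hold throughout, since the upper quartile of active entries was 1.36 for the carriers and 1.45 for the other Slc genes. The other Slc genes had 62.3% of 398 entries active, with a median of 0.535 RPKmM among active entries, close to the 0.59 of the carriers. Subunits of the oxidative phosphorylation complexes had 97.8% of 90 entries active with a median of 1.48, and mitochondrial ribosomal proteins had all 76 entries active with a median of 1.0. The 20 genes of other mitochondrial metabolite and ion transport were all active, with a median of 1.28. The highest were Mtch1, a carrier-like protein of the outer membrane, with 7.69, the sideroflexin Sfxn3 with 5.77, and the outer membrane channel Vdac2 with 4.69, and the lowest were Sfxn2 and Sfxn4 with 0.27 and Sfxn5 with 0.17. Of the import pathway that brings carriers to the inner membrane, 9 genes were in the table and all were active, with a median of 1.44. The receptor genes Tomm70a and Tomm20 had 3.13 and 1.71 and Timm29, a subunit of the carrier translocase, 2.34, whereas Timm9 had 0.61, Agk 0.54 and Timm8a1 0.41. The 12 regulators of mitochondrial biogenesis were all active as well, at a median of 0.945. Over the whole table, 68.7% of gene symbols had an active entry. The nuclear receptor Esrra had 4.22, the mitochondrial DNA factor Tfam 3.67 and the coactivator Pprc1 2.69. At the other end were the coactivator Ppargc1a with 0.04, Ppara with 0.02 and Esrrg with 0.01.

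**Figure D4:**
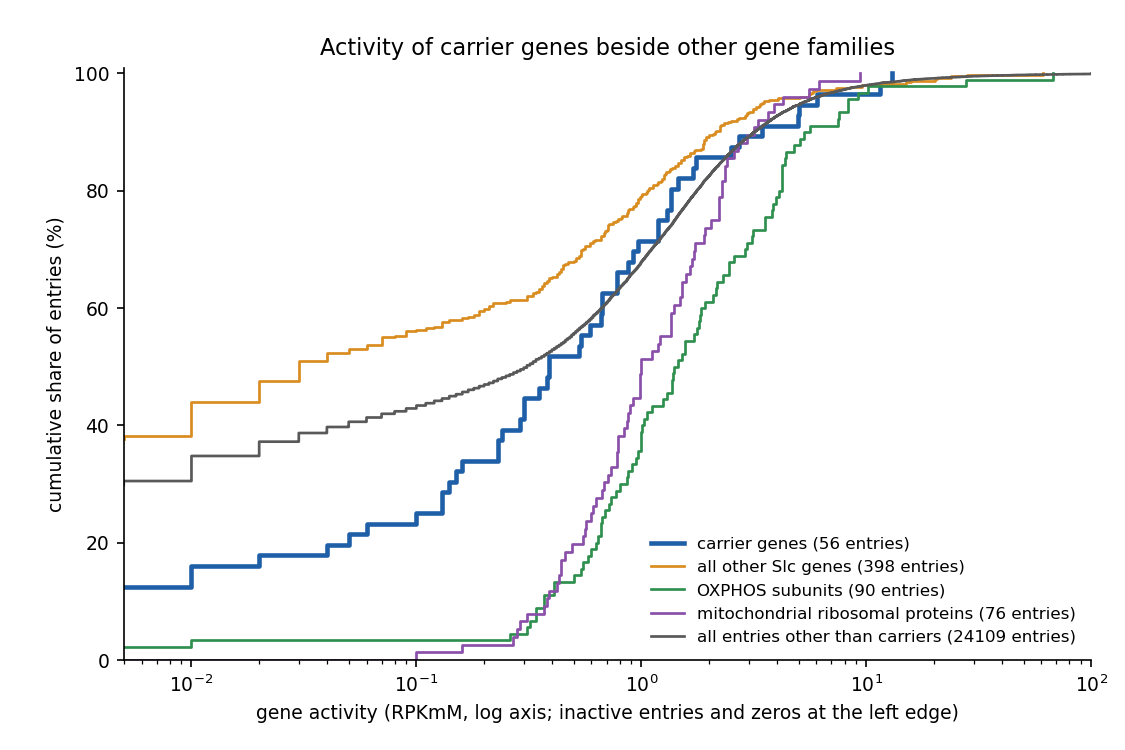
Cumulative share of entries (y axis, percent) at or below a given gene activity (x axis, RPKmM, log scale) for the carriers, the other Slc genes, the subunits of oxidative phosphorylation, the mitochondrial ribosomal proteins and all entries other than carriers. Inactive entries are counted at the left edge, so each curve starts at its share of inactive entries, 12.5% for the carriers and 29.9% for all other entries.

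The labelled cell type was checked against its markers. All 6 myoblast markers were active, where 68.7% of all symbols were. They ranged from 0.49 to 72.45 RPKmM, with Des highest, Chrna1 at 15.62, Cdh15 at 8.08, Myf5 at 5.03, Myod1 at 2.39 and Vgll2 lowest. The 5 markers of differentiated muscle were active too, from 0.2 for Ckm to 5.28 for Myh3, with Myog at 2.39, Actn3 at 1.88 and Myh1 at 1.56. Activity of these markers therefore does not separate myoblasts from differentiated muscle. Fewer cells of a type and less RNA per cell cannot be told apart in such bulk libraries, and the part of differentiating cells in the carrier levels was not tested. No marker of brown adipocytes (0 of 4), hepatocytes (0 of 3 in the table) or blood cells (0 of 3) was active. Of the markers of neurons and glia, 2 of 4 were active at 0.01 each, and of the germ cell markers 1 of 3 at 0.02.

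The protein signature of the family was counted as a description. The carriers were taken by their family symbols, so the motif gives no independent support for that choice. The motif was searched as a proline, any residue, an acidic residue, any pair of residues and a basic residue. At least 2 copies were found in 41 of 49 proteins (83.7%), and in 6.82% of all 22594 proteins, carriers included. At least 3 copies were found in 30 (61.2%), and in 2.24% of all. None was found in Slc25a46, Slc25a51 and Slc25a53. Genes ranged from 3009 bp (Slc25a1) to 484839 bp (Slc25a21). Across the 43 active genes, activity had a Spearman correlation of -0.018 with gene length and 0.147 with the share of unique windows. These are across genes of the same libraries, which are not independent replicates. On the X chromosome lie 4 of the genes, Slc25a5, Slc25a14, Slc25a43 and Slc25a53, whose most active entries ranged from 0.13 to 0.39.

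RefSeq promoter windows of 300 bases on GRCm38.p6, from 250 before to 50 after the start, were held for 39 of the 49 genes, 49 windows in all. Those without a window include Slc25a26, Slc25a27, Slc25a32, Slc25a35, Slc25a37, Slc25a41, Slc25a44, Slc25a46 and Slc25a51. Each window was given the activity of the most active entry of its gene, and windows of 1 gene were counted separately. All windows of Slc25a25 thus stand at 1.36, though other entries of this gene had 0.78 and 0.66. The shares below are of windows and not of genes. An observed to expected CpG ratio of at least 0.6 was found in 66.7% of the 15 windows of carriers at 1 RPKmM or more, in 45.5% of the 22 windows at 0.1 to below 1, and in 3 of the 12 windows below 0.1 or inactive. In the other genes of the table the shares were 77.4%, 64.2% and 23.6%. The ratio was 1.01 for Slc25a3, 0.775 for Slc25a4 and 1.07 for Slc25a11, but 0.588 for the active Slc25a24 and 0.826 for Slc25a31. It was lowest for Slc25a34, with 0.0384, and was 0.478 for Ucp1 and 0.22 for Slc25a18.

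Motifs were searched as exact letters on both strands of these windows. The Sp1 box (GGGCGG, which holds a CG itself) occurred in 93.3% of the windows of carriers at 1 or more, 90.9% at 0.1 to below 1 and 41.7% below 0.1 or inactive, and in 67.3%, 58.9% and 30.8% of the windows of other genes in these ranges. The CCAAT box (CCAAT) was found in 73.3%, 27.3% and 41.7% of carrier windows, and in 36.8%, 39.7% and 37.0% of the others, and the core of ETS factors (CCGGAA) in 46.7%, 18.2% and 8.33%, and in 29.9%, 26.0% and 8.05%. Slc25a4 holds all 3 motifs, and Slc25a3 holds the Sp1 box and the ETS core. Other motifs were rarer over all 49 windows, with the E-box CAGCTG in 14.3% (16.7% of the windows of other genes), the NRF1 core GCATGC in 6.12% (8.66%), the ERR site AAGGTCA in 2.04% (4.02%) and the TATA box TATAAA in 4.08% (9.92%). The letters TATAAA, on either strand, stood in 2 windows, those of the inactive Slc25a18 and of 1 start of the inactive Slc25a21. In the printed bases of Slc25a18 they read tttata, so the match is on the strand opposite the gene. The printed bases of Ucp1 hold tatata, which the exact search did not count. The windows of Slc25a14 overlap each other, as do those of Slc25a23, and a match of letters is a description of the sequence and not a binding site.

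**Figure D5:**
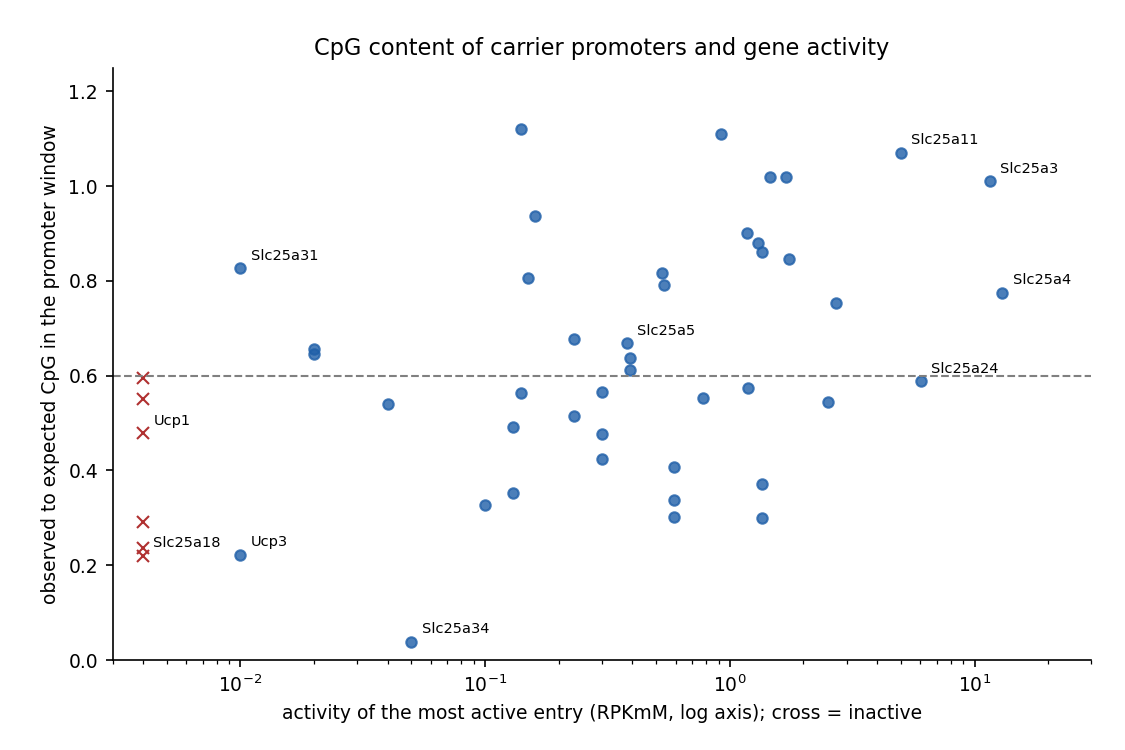
Observed to expected CpG ratio of each of the 49 promoter windows of carriers (y axis) against the activity of the most active entry of the gene (x axis, RPKmM, log scale), with the windows of inactive genes as crosses at the left. The dashed line marks 0.6, and Slc25a31 lies above it at an activity of 0.01 while Slc25a24 lies just under it at 6.03.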

How the data were processed

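GRO-seq libraries of 2 replicates of untreated C2C12 myoblasts were analysed through 1 table of gene activity. The authors aligned reads to mm9 with Bowtie2, shortened reads without a unique alignment of sufficient quality, ambiguous ones included, stepwise for another attempt, kept unique alignments, discarded those at rRNA and tRNA repeats and pooled the libraries (per the labels, CASAVA 1.8 was used too, and the version of Bowtie2 is not given in the sources used here). They deposited RPKM over mappable bases (RPKmM), rounded to 2 decimals, or the word Inactive. This reading of the unit comes from the column's name and the methods, as words among the values kept it from being checked. Pooling hides the spread between libraries, and unique mapping can leave bases of repeated genes uncounted. The table gives no depth of either library, and the agreement of the libraries and the pooled read number that the study states were not used here, so no counting error was computed.

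Carriers were matched by symbol. The members and lists were chosen with earlier results of these data known. The named genes are all carriers but 1, which is counted but not reported here by name, and of each list of related mitochondrial genes the 3 highest and 3 lowest. Counts, medians and ratios are descriptions, with no test, and ratios of paired genes carry bounds from rounding. Gene models, proteins and near copies came from GENCODE vM1 on NCBIM37, the mm9 build. Windows of 75 bases were counted over the genome, copies were found with blastn 2.17.0, and proteins were aligned with biopython 1.88. Promoters came from RefSeq on GRCm38.p6. The calculations ran in Python 3.11.15, numpy 2.4.6 and pandas 2.3.3 and were tested on simulated data. Alternatives were 1 entry per gene, a filter at 0.05 RPKmM, genes of at least 10 kb, inactive entries as 0, geometric means with pseudocounts of 0.01 and 0.1, Mtch1 and Mtch2 added, and other entries of a gene in pairs. Slc25a2 was not analysed here.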

Additional observations from a re-analysis of the deposited data

How the results depend on the processing

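Counting inactive entries as 0 lowered the median activity of carrier entries from 0.59 to 0.39 RPKmM and raised its ratio to that of all other entries from 0.678 to 1.26, so the order of the medians depends on whether inactive entries are counted. Under the other choices of entries the median lay between 0.54 and 0.67 and the ratio between 0.609 and 0.695. Geometric means in place of medians were 0.525 and 0.627 with pseudocounts of 0.01 and 0.1, with ratios of 0.863 and 0.812. Active carrier entries numbered 43 of 49 with 1 entry per gene, beside 68.7% of all symbols. With Mtch1 and Mtch2 added, 51 of 58 entries were active, beside 70.2% of all entries. Active carrier entries numbered 35 of 40 with genes of at least 10 kb only and 45 of 56 with the filter at 0.05 RPKmM. The shares of all entries under these last choices are not given here, so these counts have no background. With the lowest entry of each gene, the ratio of Slc25a25 to Slc25a23 was 33.0 and that of Slc25a24 to Slc25a25 was 9.14, and the median ratio of pairs stayed at 23.0. On the log2 scale with a pseudocount, 2 genes had entries over 1.5-fold apart, in place of 3. No paired analysis was possible because the libraries were pooled into 1 value per entry, and for the same reason no replicate could be left out. Values near 0.01 RPKmM are limited by rounding, and the reads behind each value were not computed.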
